A study of Mus musculus with 8 samples.

Results

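The 38 imprinted genes described here were taken by symbol from a list of well-known mouse imprinted genes, and all 38 were found in the deposited tables at a single locus, among 22987 genes listed at 1 locus. They were sorted by position into 14 imprinted domains, and by the parental allele from which each is usually transcribed: 15 maternally expressed, 19 paternally expressed and 4 with an allele that varies by tissue or transcript. Polyadenylated RNA was sequenced from 8 libraries of mouse pluripotent cells in 2 states. Embryonic stem cells (mESC), the naive state, were grown with the cytokine LIF, with 2 libraries of line ESF122 (mESC 1 and 2) and 2 of line ESF175/1 (mESC 3 and 4). Epiblast stem cells (mEpiSC), the primed state of the later epiblast, received FGF2 instead, with libraries of the lines EpiSC5 (mEpiSC 1), EpiSC7 (mEpiSC 2 and 3) and EpiSC9 (mEpiSC 4). The sources used here do not give the strain, sex, passage or genotype of the lines. All cells of both states grew in serum replacement on irradiated mouse embryonic fibroblasts as feeders and were separated from them before RNA was isolated. No label says whether libraries of a line were separate cultures, and the p-values then reflect the spread of these libraries alone.

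Imprinted genes are transcribed mainly from the allele of 1 parent, usually because methylation set in the egg or the sperm marks a control region that serves a cluster of neighbouring genes. In many domains a long non-coding RNA or an insulator next to that region acts on neighbouring genes of the same chromosome copy. Many paternally expressed members, such as Igf2, promote growth of the embryo and placenta. Many maternally expressed members, such as Cdkn1c, Igf2r and Phlda2, restrain it. The libraries give the total RNA of each gene, so expression from the parental alleles was not measured.

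By the depth that the deposited intervals imply, the libraries held 24800000 to 38600000 fragments, and 10947 to 11524 entries reached 1 FPKM (fragments per kilobase of transcript, relative to library depth). The general pluripotency gene Pou5f1 was present in both states (508 ± 50.6 and 450 ± 121 FPKM in mESC and mEpiSC, SD, n = 4 each). Zfp42, a naive marker, averaged 130.1 FPKM in mESC and 0.193 in mEpiSC, and Fgf5, a primed marker, 2.76 and 48.5 FPKM. All 5 naive markers tested were lower and 3 of 4 primed markers higher in mEpiSC (1 with the mean of the fibroblast markers below as a covariate, where Fgf5 had an adjusted p of 0.088, or with 1 mean per line), and 0 of 3 general pluripotency markers was called. In a principal component analysis, mESC 4 and mEpiSC 4 stood apart from the other libraries of their state along the second component (-33.5 and -48.9, against 8.8 to 20.6).

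Several members are hosts of microRNAs, small RNAs that pair with target messages mainly through a seed at bases 2 to 8. By RefSeq positions (GRCm38.p6), hairpins lie within 8 members other than Rtl1, all on the strand of the gene. These are 10 within Mirg, 3 within Rian, 2 within Calcr and 1 each within H19, Igf2, Meg3, Usp29 and Mest. A further mature sequence, miR-1906, lies within Meg3 on its strand, and the count of hairpins does not include it. The span of Rtl1 holds 15 hairpins, of which 13 lie on the opposite strand and 2 on its own, and the Rtl1 entry of the deposited tables overlaps 7 microRNA entries. The Sfmbt2 entry of the deposited tables overlaps 36 entries, all of them microRNAs, although the RefSeq positions used here gave no hairpin within it. The mature sequences below belong to the hosts whose levels are described most fully, with the seed in capitals. They were not measured in these polyadenylated libraries. H19 holds miR-675, whose arms lie at chr7:142577112-142577133 and chr7:142577078-142577099 on the minus strand. Mest holds miR-335 (chr6:30741314-30741336, plus strand), and Mirg holds miR-377, miR-369 and miR-410 on the plus strand of chromosome 12.
miR-675-5p: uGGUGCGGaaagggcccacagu
miR-675-3p: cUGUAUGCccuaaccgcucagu
miR-335-5p: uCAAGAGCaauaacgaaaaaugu
miR-377-3p: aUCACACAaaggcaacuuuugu
miR-369-3p: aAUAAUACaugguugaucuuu
miR-410-3p: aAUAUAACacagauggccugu
No seed was shared among these 6. Within Mirg, 2 mature sequences (miR-453 and miR-496a-5p) shared the seed GGUUGCC.

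RefSeq promoters were matched for 32 members, all except H19, Rtl1, Cdkn1c, Peg10, Sgce and Impact. The 250 bases upstream of the start held a median of 10.0 CpG sites over the 32 members (range 0 to 40) and of 6 over all 27025 promoters. The letters TGCCGC, on either strand, which match the motif of the imprint-protecting protein ZFP57, occurred in 5 of the 32 windows (Meg3, Zim1, Plagl1, Calcr and Copg2), or 15.6%, and in 8.6% of all. Shown are the 250 upstream bases of Nnat, Asb4 and Grb10, the matched members with the lowest adjusted p for a rise, and of Sfmbt2, the member that fell under every alternative fit, with CpG sites in capitals. In GRCm38.p6 the window of Asb4 is chr6:5383136-5383385 (plus strand) and that of Nnat chr2:157559828-157560077 (plus). The window of Grb10 is chr11:12037421-12037670 (minus) and that of Sfmbt2 chr2:10370201-10370450 (plus).
Asb4: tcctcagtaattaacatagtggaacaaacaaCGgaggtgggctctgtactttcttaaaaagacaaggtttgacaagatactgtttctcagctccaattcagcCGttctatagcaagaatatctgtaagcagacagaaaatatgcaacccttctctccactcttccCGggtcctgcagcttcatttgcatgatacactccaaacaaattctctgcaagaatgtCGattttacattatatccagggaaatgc
Nnat: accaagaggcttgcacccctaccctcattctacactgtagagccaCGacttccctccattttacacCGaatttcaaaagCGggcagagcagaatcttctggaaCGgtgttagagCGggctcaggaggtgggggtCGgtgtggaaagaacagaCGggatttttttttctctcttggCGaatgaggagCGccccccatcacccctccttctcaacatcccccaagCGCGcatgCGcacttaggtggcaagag
Grb10: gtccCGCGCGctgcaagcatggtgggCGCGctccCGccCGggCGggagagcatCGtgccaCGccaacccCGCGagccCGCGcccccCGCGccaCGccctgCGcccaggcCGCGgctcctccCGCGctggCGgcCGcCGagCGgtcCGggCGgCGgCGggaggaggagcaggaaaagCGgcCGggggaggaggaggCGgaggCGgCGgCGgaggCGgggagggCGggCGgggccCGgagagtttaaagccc
Sfmbt2: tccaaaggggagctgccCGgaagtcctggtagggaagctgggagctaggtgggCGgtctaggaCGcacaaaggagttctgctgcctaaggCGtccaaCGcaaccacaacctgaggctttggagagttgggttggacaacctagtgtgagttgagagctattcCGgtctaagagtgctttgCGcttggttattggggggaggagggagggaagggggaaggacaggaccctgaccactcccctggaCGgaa
Grb10 had 40 CpG sites in this window, at the 98.9th percentile of all promoters, and Asb4 had 4, at the 44.5th. Nnat had 12 and Sfmbt2 8. Members that rose in mEpiSC thus had upstream windows with few CpG sites as well as with many. TGCCGC was in none of these 4 windows.

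More imprinted genes were higher in mEpiSC than lower. Of the 33 members tested, 17 rose and 3 fell in mEpiSC at a Benjamini-Hochberg adjusted p under 0.05, which is 51.5% and 9.09% of them. Over all 11556 genes tested in the same limma fit of log2(FPKM + 1), 23.1% were higher and 14.2% lower. The median log2 fold change (mEpiSC minus mESC) was 0.75 over the tested members and 0.083 over all genes tested. Among paternally expressed members 10 of 15 tested rose (among them Igf2, Peg3, Nnat and Peg10) and 2 fell (Impact and Sfmbt2). Among maternally expressed members 5 of 14 rose (H19, Rian, Cdkn1c, Asb4 and Calcr) and Phlda2 fell. Grb10 and Gnas, both in the group of 4 with mixed allele, rose too. The difference between the parental groups was not tested.

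Libraries of the states did not overlap for 13 tested members with mEpiSC above and 2 (Phlda2 and Sfmbt2) with mEpiSC below, where 22.2% and 14.9% of all genes tested did so. Dio3, Zim1, Usp29, Magel2 and Kcnq1ot1 reached 1 FPKM in fewer than 4 libraries and were not tested. Dlk1, Rtl1, Slc22a18, Plagl1, Asb4 and Calcr passed that filter with fewer than 4 mESC libraries at 1 FPKM, so the counts over tested members describe the genes and are no independent support for a direction. Under median ratio scaling and quantile normalization the share of all calls that were higher went from 61.9% to 47.7% and 49.8%, and 14 members rose under each, with 3 and 2 lower. The median over all genes moved from 0.083 to -0.046 and -0.019 on the log2 scale. Only Mkrn3, which was not called, changed direction with the scaling. With 1 mean per line in place of separate libraries, 12 members rose and 1 fell (7.49% and 4.82% of all genes). With the line as a random block (correlation within lines 0.47), 13 members rose and 1 fell. Over the 11556 genes, 1796 rose and 1046 fell in that fit. Rian, Dlk1, Snrpn, Peg12, Impact and Phlda2 were not called there.

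**Figure D1:**
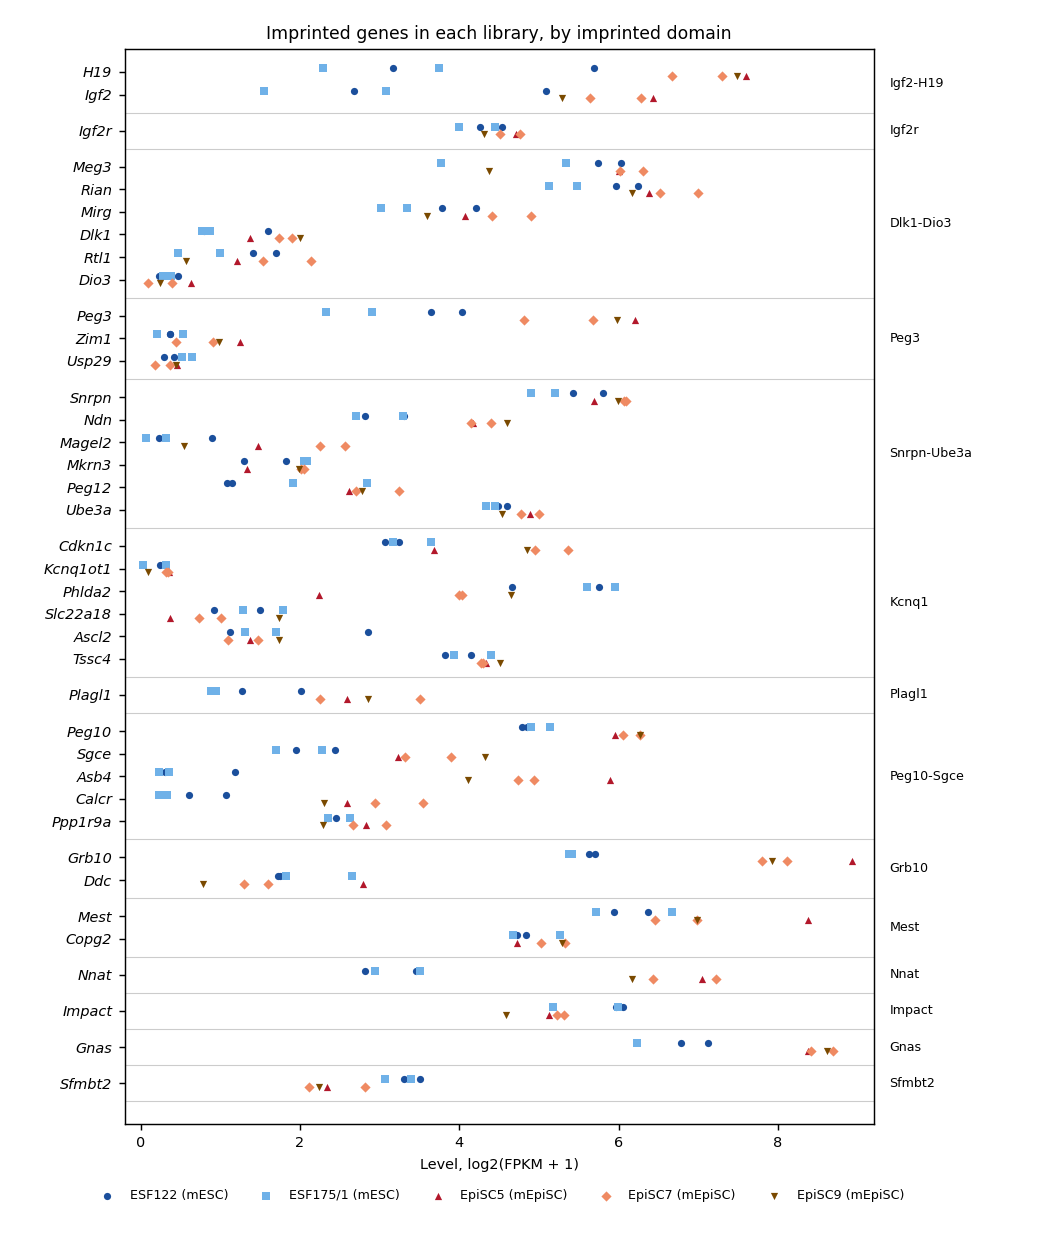
Level of each of the 38 imprinted genes in the 8 libraries, as log2(FPKM + 1), grouped by imprinted domain (right). Circles and squares are the mESC lines and triangles and diamonds the mEpiSC lines. Asb4, Nnat and Grb10 show separate groups of libraries, while H19 and Igf2 spread widely over the mESC libraries.

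**Figure D2:**
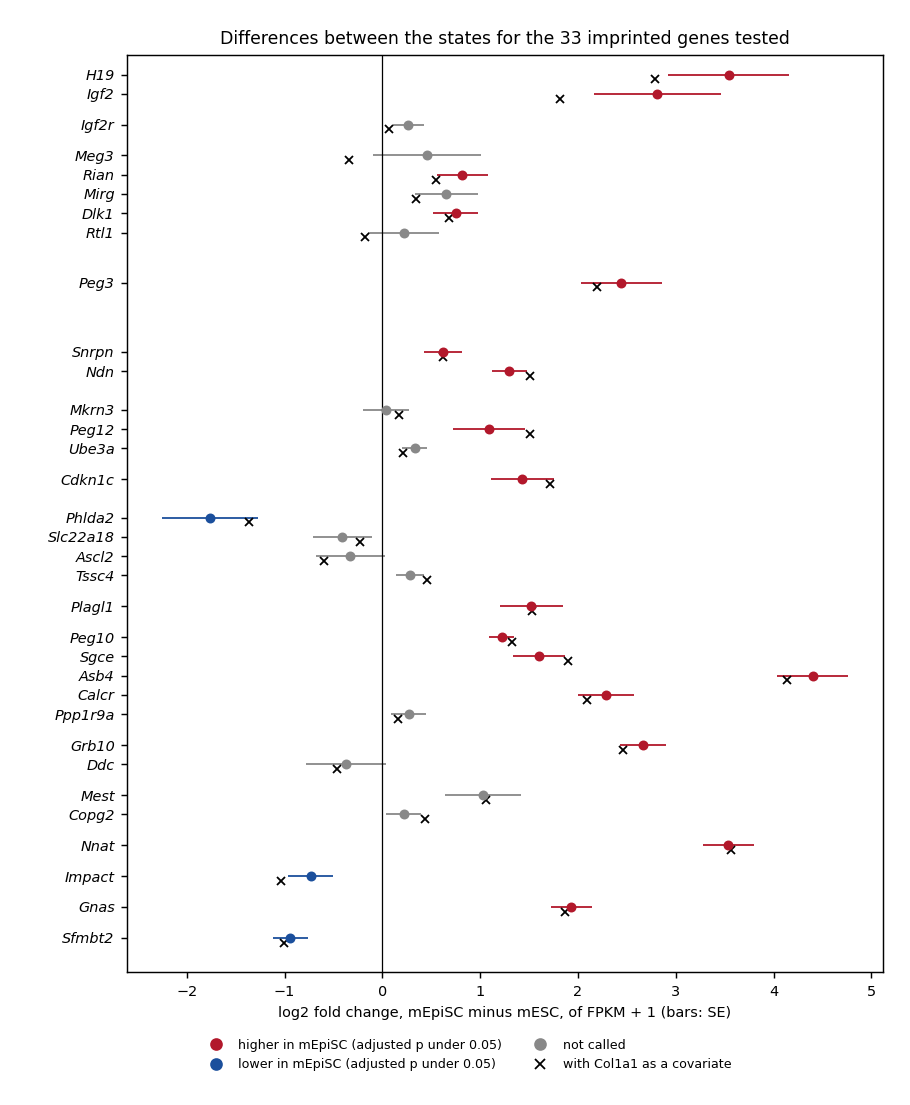
log2 fold change of FPKM + 1 (mEpiSC minus mESC, bars 1 SE) of the 33 tested members, coloured by call; crosses give the value with Col1a1 as a covariate. 17 members lie to the right in red and 3 to the left in blue, and the crosses of H19 and Igf2 lie left of their points at 2.79 and 1.82.

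Igf2 and H19 share an enhancer and an insulator at the end of chromosome 7 (mm9 chr7:149761437-149846940). Igf2 encodes the growth factor IGF2, and H19 a non-coding RNA made from the other allele. H19 was at 50.5, 7.95, 12.4 and 3.88 FPKM in mESC 1 to 4 and at 192, 101, 156 and 177 FPKM in mEpiSC 1 to 4. Igf2 was at 33.1, 5.39, 7.47 and 1.92 FPKM in mESC and at 85.5, 48.9, 76.5 and 38.1 FPKM in mEpiSC. Every mEpiSC library was above every mESC library for both genes, and mESC 1 was well above the other mESC libraries. The log2 fold change was 3.54 ± 0.62 (SE) for H19 (adjusted p = 0.0026) and 2.81 ± 0.65 for Igf2 (adjusted p = 0.0092). In FPKM the mEpiSC mean was 8.39 and 5.20 times the mESC mean. Of 50-base windows of Igf2 transcripts, 61.2% also occur in transcripts of genes that overlap it, so reads of Igf2 could belong to such a gene. The windows were compared in the sense of the transcripts, so genes read the other way, such as Igf2as, are not counted.

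The feeder marker Col1a1, a collagen chain made by fibroblasts, varied widely within both states. Its values were 78.4, 9.71, 13.9 and 0.481 FPKM in mESC 1 to 4 and 159, 84.5, 51.5 and 7.92 FPKM in mEpiSC 1 to 4. The states overlapped, and the log2 fold change of 2.10 ± 1.21 had an adjusted p of 0.20. In the fit blocked by replicate number Col1a1 was called higher in mEpiSC (adjusted p = 0.0048). Of the 18 fibroblast markers listed, 17 were tested and 7 were higher in mEpiSC (41.2%, against 23.1% of all genes). The count was 13 without mESC 1 and 16 under the replicate block. The summed level of the 18 markers was 50.6 to 365 FPKM in mESC and 318 to 807 FPKM in mEpiSC. Fap, a defining marker of activated fibroblasts, was at 0 to 0.316 FPKM.

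Among the mESC libraries, H19 and Igf2 had the same order as Col1a1, highest in mESC 1 and lowest in mESC 4. In mEpiSC 4, Col1a1 (7.92 FPKM) was below mESC 1, 2 and 3, but the summed level of the 18 markers (393 FPKM) was above all 4 mESC libraries, with Sparc at 144 and Tagln at 145 FPKM. By the mean log2 level of the 17 tested markers, mEpiSC 3 and 4 (3.41 and 3.11) lay below mESC 1 (3.50) and above mESC 2, 3 and 4 (1.96, 1.90 and 0.985). H19 was at 156 and 177 FPKM in mEpiSC 3 and 4, and at 50.5 FPKM in mESC 1. With Col1a1 as a covariate, H19 kept a log2 fold change of 2.79 (adjusted p = 0.0056) and Igf2 of 1.82 (adjusted p = 0.0069). With the mean log2 level of those markers as a covariate (the marker mean), an alternative added after seeing the data, the values were 1.92 for H19 (adjusted p = 0.052) and 0.89 for Igf2 (adjusted p = 0.19), neither of which passed. With no covariate and without mESC 1 they were 4.20 and 3.48.

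Over the members, 16 rose and 2 fell with Col1a1 as a covariate, where 25.0% and 13.8% of all genes did. Phlda2, Rian, Dlk1 and Snrpn were no longer called, and Copg2 and Tssc4 were called. With the marker mean as the covariate, 10 rose and 2 fell, against 13.3% and 6.76% of all genes. Asb4, Nnat, Grb10, Gnas, Ndn, Peg10, Sgce, Calcr, Cdkn1c and Peg12 were those that still rose. Fewer feeder cells and less RNA of a gene per cell cannot be told apart in these bulk libraries, here and in each result that follows.

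**Figure D3:**
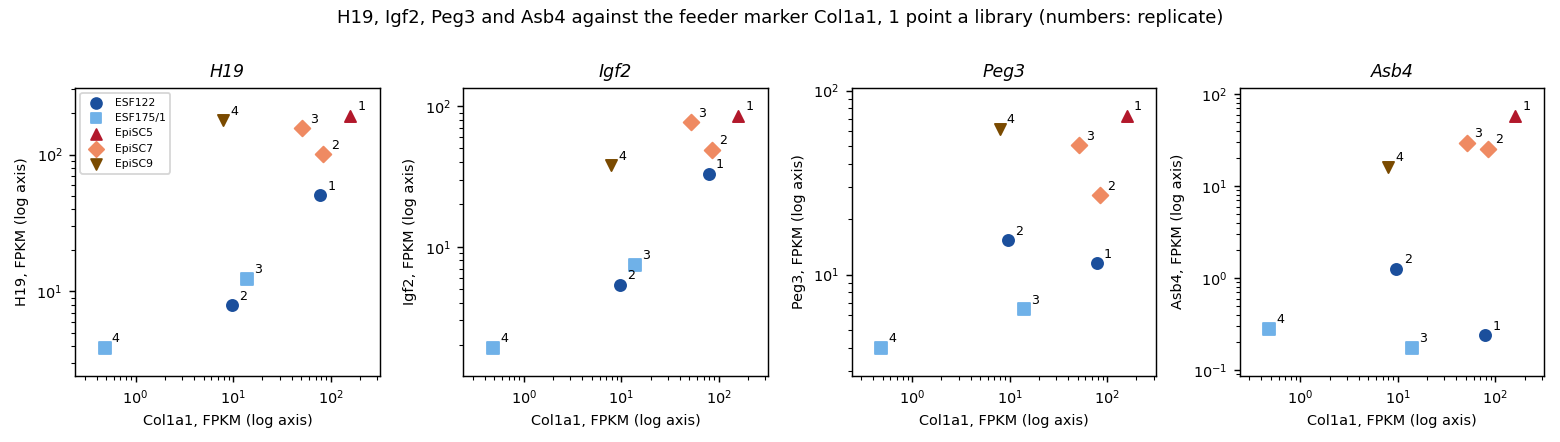
FPKM of H19, Igf2, Peg3 and Asb4 against FPKM of the feeder marker Col1a1 (log axes), 1 point per library, numbered by replicate within a state. The mEpiSC 4 point, at 7.92 FPKM of Col1a1, lies level with other mEpiSC libraries in H19 and Peg3 and below them in Igf2 and Asb4, while mESC 1, at 78.4 FPKM, has 0.239 FPKM of Asb4.

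Other genes of the IGF pathway rose as well. Igf2r (mm9 chr17:12875272-12962572), the maternally expressed receptor that clears IGF2, was at 15.0 to 22.2 FPKM in mESC and 18.9 to 26.2 FPKM in mEpiSC. These ranges overlap, and the log2 difference of 0.26 ± 0.16 was not called (adjusted p = 0.22, but 0.049 in the fit blocked by replicate number). Of 13 genes listed around the pathway, 11 were tested. Besides ligands, receptors, their adaptors and binding proteins, the list holds the RNA-binding proteins Igf2bp1, Igf2bp2 and Igf2bp3. Of these 10 rose (90.9%, against 23.1% of all genes) and 0 fell (14.2% of all genes). Igf2bp2 and Igf2bp3 are among those that rose. With Col1a1 as a covariate 9 rose (25.0% of all genes), and with the marker mean 6 (13.3% of all genes). With 1 mean per line 7 rose (7.49% of all genes). The binding proteins Igfbp5 (1.10 ± 0.626 to 23.7 ± 5.42 FPKM), Igfbp3 (9.81 ± 3.97 to 86.7 ± 67.4 FPKM) and Igfbp4 (8.68 ± 2.84 to 65.0 ± 29.8 FPKM, SD, n = 4 each) had the largest log2 fold changes, 3.58, 2.83 and 2.71. Irs2, an adaptor of the insulin and IGF receptors, rose by 1.84 (adjusted p = 0.0066), a call lost with the marker mean as a covariate (1.61, adjusted p = 0.093).

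In the Dlk1-Dio3 domain (mm9 chr12:110691033-111519307) the maternally expressed non-coding RNAs Meg3, Rian and Mirg were abundant and the paternally expressed genes low. Rian, which hosts small nucleolar RNAs, was at 61.6, 74.5, 43.4 and 33.9 FPKM in mESC 1 to 4 and 82.6, 127, 90.5 and 71.0 FPKM in mEpiSC 1 to 4. Only mEpiSC 4 lay within the mESC range. The log2 fold change was 0.82 ± 0.26 (adjusted p = 0.037). That call did not hold without mESC 1, 3 or 4 or mEpiSC 1, 2 or 3, each left out alone (adjusted p 0.051 to 0.10). Meg3 was at 52.5, 64.2, 39.4 and 12.6 FPKM in mESC and 63.4, 78.2, 63.9 and 19.6 FPKM in mEpiSC. The replicate 4 libraries of both states were the lowest, and the states overlapped (log2 difference 0.46 ± 0.55, adjusted p = 0.55). Under the replicate block Meg3 and Mirg passed (adjusted p = 0.017 and 0.014), while without mESC 4 the Meg3 difference was -0.03. Mirg also passed without mEpiSC 4 (0.87, adjusted p = 0.049).

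Mirg, the host of a dense microRNA cluster shown above, was at 7.09 to 17.4 FPKM in mESC and 11.0 to 28.7 FPKM in mEpiSC. Its ratio to Rian was 0.207 to 0.234 in mESC and 0.156 to 0.226 in mEpiSC, so the 2 transcripts kept a nearly fixed proportion in the 8 libraries. The ratio of Meg3 to Rian was 0.372 in mESC 4 and 0.276 in mEpiSC 4 and 0.616 to 0.909 in the other 6 libraries. Dlk1, a membrane protein of the Notch ligand family, was at 2.01, 0.727, 0.706 and 0.827 FPKM in mESC and 1.59, 2.73, 2.34 and 3.01 FPKM in mEpiSC. It was higher in mEpiSC by 0.75 ± 0.23 (log2, adjusted p = 0.029), with mESC 1 inside the mEpiSC range. The call was lost without mESC 2, 3 or 4 or mEpiSC 2, 3 or 4 (adjusted p 0.056 to 0.086) and in the fit blocked by replicate number (adjusted p = 0.061). Rtl1, a retrotransposon-derived gene needed in the placenta, was at 0.386 to 2.25 FPKM in mESC and 0.479 to 3.39 FPKM in mEpiSC and was not called. Dio3, a thyroid hormone deiodinase, stayed at 0.0629 to 0.55 FPKM in all 8 libraries.

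The Peg3 domain (mm9 chr7:6628154-6919931) contained 1 abundant gene. Peg3, a zinc finger protein, was at 11.5, 15.4, 6.45 and 4.00 FPKM in mESC and at 73.0, 27.0, 50.4 and 62.1 FPKM in mEpiSC. No library of a state overlapped the other, with mEpiSC 2 the lowest of its state. Peg3 rose by 2.44 ± 0.41 on the log2 scale (adjusted p = 0.0021). The value was 2.20 with Col1a1 as a covariate (adjusted p = 0.0080) and 1.82 with the marker mean (adjusted p = 0.056, no longer called). Usp29, which starts 164 bases from Peg3 in RefSeq and is transcribed the other way, was at 0.225 to 0.558 FPKM in mESC and 0.133 to 0.375 FPKM in mEpiSC. Thus the ratio of Peg3 to Usp29 was 9.35 to 68.4 in mESC and 174 to 202 in mEpiSC. Zim1, maternally expressed, was at 0.148 to 0.448 FPKM in mESC and 0.353 to 1.37 FPKM in mEpiSC; its difference without a filter on low values was 0.53 (adjusted p = 0.086).

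All genes but 1 of the 5 of the Peg10-Sgce domain (mm9 chr6:3635720-5383021) rose. Asb4, an adaptor of ubiquitin ligases expressed from the maternal allele, was at 0.239, 1.27, 0.175 and 0.283 FPKM in mESC and at 58.4, 25.6, 29.7 and 16.3 FPKM in mEpiSC. The lowest mEpiSC library was far above the highest mESC library. Its log2 fold change of 4.40 ± 0.37 was the largest among the members (adjusted p = 7.9e-05), and its mean was 66.0 times higher in mEpiSC. Calcr, the calcitonin receptor, was at 0.528, 1.10, 0.252 and 0.171 FPKM in mESC and 5.04, 10.6, 6.66 and 3.92 FPKM in mEpiSC, again without overlap. It rose by 2.28 ± 0.29 (adjusted p = 0.00063).

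The paternally expressed pair Peg10 and Sgce is read outward from a shared start region. Peg10, a retrotransposon-derived gene needed for the placenta, was at 27.9, 26.6, 28.8 and 34.2 FPKM in mESC and 61.2, 75.9, 65.2 and 76.1 FPKM in mEpiSC, with little spread within a state. It rose by 1.22 ± 0.13 (adjusted p = 0.00025). Sgce, a sarcoglycan of the cell membrane, was at 2.87, 4.42, 2.24 and 3.84 FPKM in mESC and 8.34, 9.0, 13.9 and 19.1 FPKM in mEpiSC. Its rise was 1.60 ± 0.27 (adjusted p = 0.0022), also without overlap. Peg10 exceeded Sgce by 6.01 to 12.9 times in mESC and 3.99 to 8.43 times in mEpiSC, ranges that overlap. Ppp1r9a, a neuronal actin-binding protein, was at 4.08 to 5.17 and 3.89 to 7.42 FPKM and was not called (0.27 ± 0.18).

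In the Snrpn-Ube3a domain (mm9 chr7:66484120-69609396) the paternally expressed Ndn, Peg12 and Snrpn rose. Ndn, a growth-restraining protein of the MAGE family, was at 6.04, 8.90, 5.52 and 8.78 FPKM in mESC and 17.0, 16.6, 20.1 and 23.2 FPKM in mEpiSC. The groups did not overlap, and the log2 fold change was 1.30 ± 0.18 (adjusted p = 0.00097). Snrpn, a component of the splicing machinery, was at 42.2, 55.1, 28.7 and 35.9 FPKM in mESC and 50.6, 65.9, 66.9 and 62.5 FPKM in mEpiSC. Of its 50-base windows 21.2% also occur in overlapping genes, such as Snurf. Here mESC 2 exceeded mEpiSC 1, and the rise of 0.62 ± 0.20 (adjusted p = 0.034) was not called without mESC 1, 3 or 4 or mEpiSC 2, 3 or 4 (adjusted p 0.053 to 0.089). Peg12 was at 1.11, 1.22, 2.75 and 6.14 FPKM in mESC and 5.15, 5.50, 8.44 and 5.84 FPKM in mEpiSC. Its highest mESC library exceeded 3 of the mEpiSC libraries, and its call (1.09 ± 0.37, adjusted p = 0.045) held only when mESC 4 was the library left out (adjusted p 0.064 to 0.12 without any other).

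Magel2, another MAGE family gene, was at 0.177, 0.863, 0.25 and 0.0451 FPKM in mESC and 1.77, 3.78, 4.92 and 0.455 FPKM in mEpiSC. Only mEpiSC 4 fell within the mESC range, and the difference without a filter was 1.33 ± 0.47 (adjusted p = 0.10). Mkrn3 was at 1.45 to 3.26 and 1.52 to 3.15 FPKM and differed by 0.04 ± 0.23. Ube3a, a ubiquitin ligase whose imprinting is known from neurons, was at 19.2 to 23.3 FPKM in mESC and 22.2 to 31.0 FPKM in mEpiSC (0.33 ± 0.13, adjusted p = 0.071). It passed under the replicate block (adjusted p = 0.036) and without mEpiSC 4 (adjusted p = 0.019).

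The Kcnq1 domain (mm9 chr7:150152727-150688429) held growth-restraining genes that moved in opposite directions. Cdkn1c, an inhibitor of cyclin-dependent kinases, was at 7.38, 8.44, 7.99 and 11.5 FPKM in mESC and 11.8, 29.9, 40.3 and 27.7 FPKM in mEpiSC. Its libraries did not overlap, although mEpiSC 1 lay next to mESC 4, and it rose by 1.43 ± 0.32 (adjusted p = 0.0086, but 0.12 with 1 mean per line). Phlda2, which limits placental growth, was at 53.1, 24.3, 47.6 and 61.1 FPKM in mESC and 3.73, 14.9, 15.3 and 24.2 FPKM in mEpiSC. The highest mEpiSC library was just under the lowest mESC library, and Phlda2 fell by 1.77 ± 0.49 (log2, adjusted p = 0.021). The call was lost without mESC 1, 3 or 4 (adjusted p 0.055, 0.056 and 0.055).

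Both genes are maternally expressed. In each mESC library Cdkn1c was below Phlda2 (ratio 0.139 to 0.348), and in each mEpiSC library above it (1.15 to 3.18). Of the other maternally expressed genes, Slc22a18 was at 0.887 to 2.44 and 0.294 to 2.32 FPKM, Ascl2, a trophoblast transcription factor, at 1.17 to 6.20 and 1.13 to 2.32 FPKM, and Tssc4 at 13.1 to 20.0 and 18.4 to 21.8 FPKM in mESC and mEpiSC. None of these 3 was called, and Tssc4 passed without mESC 4 (adjusted p = 0.046). Kcnq1ot1, the paternal non-coding RNA that silences the domain, was at 0.0215 to 0.249 FPKM in mESC and 0.0625 to 0.276 FPKM in mEpiSC. As Kcnq1ot1 overlaps Kcnq1 and strand use is not given, its reads cannot be told apart from those of Kcnq1 introns. Kcnq1 itself was at 0 to 0.0227 FPKM in mESC and 0.0113 to 0.0932 FPKM in mEpiSC.

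Grb10, an adaptor that restrains insulin and IGF receptor signalling, reached the highest FPKM of any member in a library. It was at 51.2, 48.4, 41.5 and 40.6 FPKM in mESC and at 486, 221, 277 and 242 FPKM in mEpiSC. Its libraries were tightly grouped in mESC and separate in mEpiSC, with mEpiSC 1 the highest. The rise was 2.66 ± 0.24 (log2, adjusted p = 0.00011), and 2.42 without mEpiSC 1. Ddc, the neighbouring gene for a decarboxylase of dopamine synthesis (domain at mm9 chr11:11714104-11937423), was at 2.30, 2.37, 2.54 and 5.28 FPKM in mESC and 5.92, 1.45, 2.02 and 0.714 FPKM in mEpiSC, and was not called (-0.37 ± 0.41). The ratio of Grb10 to Ddc was 7.69 to 22.2 in mESC and 82.0 to 339.6 in mEpiSC.

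Mest, a hydrolase-like protein of embryonic mesoderm, was at 60.2, 81.8, 51.5 and 100.4 FPKM in mESC and 331, 87.0, 126 and 125 FPKM in mEpiSC (domain at mm9 chr6:30683506-30846760). The mEpiSC mean was raised by mEpiSC 1, the states overlapped, and the log2 difference of 1.03 ± 0.39 was not called (adjusted p = 0.064). Without mEpiSC 2 it was 1.27 and passed (adjusted p = 0.039), and without mEpiSC 1 it was 0.64 (adjusted p = 0.089). Copg2, a coat protein gene that overlaps Mest at its end, was at 24.5 to 37.3 and 25.4 to 39.1 FPKM. It was not called (0.22 ± 0.18).

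Library mEpiSC 1, the only one of EpiSC5, had the highest value of H19, Igf2, Peg3, Asb4, Grb10, Ddc and Mest, of the low Dio3, Zim1 and Kcnq1ot1, and of Col1a1. It also had the highest sum of 8 primitive endoderm markers, 79.4 FPKM against 13.5 to 22.1 in the other mEpiSC and 3.45 to 6.32 in the mESC libraries. Of those markers 5 were tested and 4 were higher in mEpiSC (80%, against 23.1% of all genes). The count was 2 with Col1a1 as a covariate, and 0 with the marker mean or with 1 mean per line. Gata6 and Sox17 passed the filter on low values through mEpiSC libraries only, and Pdgfra is also among the fibroblast markers. Afp was at 0 to 0.11 FPKM. The part of these markers in the levels of these members was not tested. Leaving mEpiSC 1 out, the log2 fold changes of H19, Igf2, Peg3, Asb4 and Grb10 were 3.43, 2.64, 2.26, 4.07 and 2.42, and all 5 passed. The 8 trophoblast markers summed to 14.5 to 18.9 FPKM in mESC and 9.48 to 46.5 FPKM in mEpiSC. Much of this was Tfap2c (12.2 to 14.4 FPKM in mESC) and Eomes (33.1 FPKM in mEpiSC 1). Cdx2, Elf5 and Hand1 stayed at 0 to 0.615 FPKM, and Prl3d1 was at 0 in every library. Of 3 tested, 1 was higher (0 with the marker mean or with 1 mean per line) and 1 lower (0 with 1 mean per line).

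Of the domains with 1 member, Nnat, Gnas and Plagl1 rose. Nnat (mm9 chr2:157385846-157388255), a small membrane protein of neural tissue that lies within Blcap, was at 6.06, 9.97, 6.71 and 10.3 FPKM in mESC and 131, 85.3, 148 and 71.0 FPKM in mEpiSC. The states were far apart, and it rose by 3.54 ± 0.26 (log2, adjusted p = 4e-05). Gnas (mm9 chr2:174109821-174172243), which encodes the stimulatory G protein subunit and further transcripts of either allele, was at 109, 138, 74.2 and 74.0 FPKM in mESC and 331, 339, 411 and 390.4 FPKM in mEpiSC. It rose by 1.93 ± 0.21 (adjusted p = 0.00031), without overlap. Plagl1 (mm9 chr10:12810594-12851501), a zinc finger regulator of other imprinted genes, was at 1.41, 3.02, 0.836 and 0.929 FPKM in mESC and 5.00, 3.76, 10.3 and 6.20 FPKM in mEpiSC. Its rise was 1.52 ± 0.32 (adjusted p = 0.0064) and was not called with the marker mean as a covariate (1.60, adjusted p = 0.057).

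Impact and Sfmbt2, both paternally expressed, fell. Sfmbt2 (mm9 chr2:10292078-10516880), a Polycomb group protein, was at 10.4, 8.87, 7.37 and 9.49 FPKM in mESC and 4.06, 6.01, 3.34 and 3.73 FPKM in mEpiSC. Its libraries did not overlap, and it fell by 0.94 ± 0.18 (log2, adjusted p = 0.0038). Impact (mm9 chr18:13130761-13151457), a regulator of translation, was at 61.3, 65.5, 62.4 and 35.1 FPKM in mESC and 34.0, 38.7, 36.3 and 23.0 FPKM in mEpiSC. The low value of mESC 4 lay within the mEpiSC range, and Impact fell by 0.73 ± 0.23 (adjusted p = 0.035). That call was lost without mESC 1, 2 or 3 or mEpiSC 1, 3 or 4 (adjusted p 0.059 to 0.096).

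**Figure D4:**
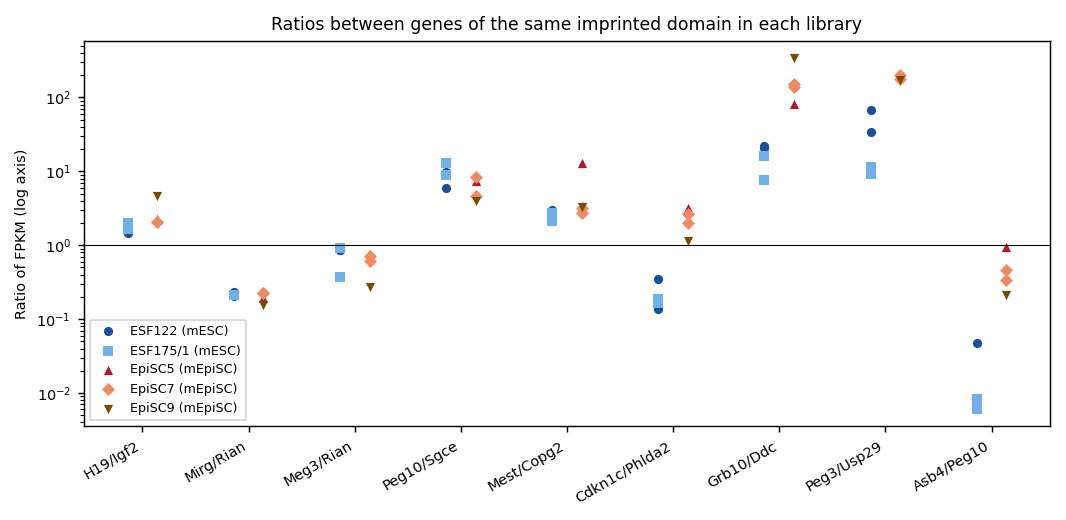
Ratio of FPKM between genes of 1 domain in each library (log axis; the line marks a ratio of 1). Cdkn1c to Phlda2 crosses 1 between the states (0.139 to 0.348 in mESC, 1.15 to 3.18 in mEpiSC), and Mirg to Rian stays within 0.156 to 0.234 in all 8 libraries.

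Within a state, no member was called between lines. Between the mESC lines 0 of 33 tested members passed in limma (0.762% of all genes did), and 9 had an unadjusted p under 0.05 (14.9% of all genes). Peg12 had the lowest p, with 1.16 FPKM on average in ESF122 and 4.45 in ESF175/1 (log2 difference 1.26, adjusted p = 0.17), followed by Gnas (123 and 74.1 FPKM) and Peg3 (13.5 and 5.23 FPKM, adjusted p = 0.18 each). Without mESC 3, 5 members passed (Ddc, Impact, Meg3, Peg12 and Rian), with mESC 4 then the only library of its line.

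Among the 3 mEpiSC lines 0 of 33 passed an F test (2.60% of all genes did), and 11 had an unadjusted p under 0.05 (24.7%). The lowest p belonged to Cdkn1c, highest in EpiSC7 and lowest in EpiSC5 (log2 range 1.48, adjusted p = 0.067), and Phlda2, highest in EpiSC9 and lowest in EpiSC5 (2.41, adjusted p = 0.071). Ddc and Grb10 followed, both highest in EpiSC5 and lowest in EpiSC9 (2.01 and 1.00, adjusted p = 0.076 and 0.078). EpiSC5 and EpiSC9 have 1 library each and were assumed to vary like the other lines. Without mESC 3 or mESC 4, which enter only through the shared spread, 6 members passed (Cdkn1c, Ddc, Grb10, Impact, Meg3 and Mest). Without mESC 1 or 2 only Phlda2 did.

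Further imprinted genes and the proteins that keep imprints were counted from separate lists. Of 44 other imprinted genes, 42 were found and 25 tested, of which 10 rose (40.0%, against 23.1% of all genes) and 3 fell (12%, against 14.2%), with a median log2 fold change of 0.29. With the marker mean as a covariate 6 rose and 1 fell (13.3% and 6.76% of all genes). With 1 mean per line 4 rose and 1 fell (7.49% and 4.82% of all genes). Airn, Ano1 and Osbpl5 passed the filter on low values through mEpiSC libraries only. These counts therefore describe the genes and are no independent support for a direction. Gab1, an adaptor of growth factor receptors, fell from 72.7 ± 15.7 to 6.57 ± 1.01 FPKM (SD, n = 4 each, log2 -3.27, adjusted p = 5e-06). Ano1, Osbpl5 and Pon2 rose by 1.97, 1.72 and 1.39. The calls of Ano1 and Osbpl5 were lost with the marker mean as a covariate (1.33 and 0.98, adjusted p = 0.11 and 0.15) and with 1 mean per line (adjusted p = 0.094 and 0.081). Osbpl5 and Pon2 lie in or beside the Kcnq1 and Peg10-Sgce domains, respectively.

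Of 24 genes listed for setting, guarding or erasing imprints, 23 were tested. Of these 1 rose (4.35%, against 23.1% of all genes) and 10 fell (43.5%, against 14.2%). Dnmt3l, which helps the enzymes that place new DNA methylation, fell from 113 ± 38.8 to 0.824 ± 0.936 FPKM (log2 -6.00, adjusted p = 1.1e-05), and Dppa3, which protects maternal methylation, from 15.5 ± 5.11 to 0.125 ± 0.177 FPKM (-3.83, adjusted p = 1.5e-05). Tet1, which oxidises methylated cytosine, fell by 1.66 (adjusted p = 0.0033). Zfp57, whose protein binds methylated TGCCGC at imprint control regions, fell from 57.0 ± 17.1 to 17.7 ± 3.56 FPKM (-1.60, adjusted p = 0.00088). With the marker mean as a covariate 0 of the 23 rose and 9 fell, where 13.3% and 6.76% of all genes did. Dppa3 passed the filter on low values through mESC libraries only.

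Asb4, Gnas, Grb10, Ndn, Nnat, Peg10, Sfmbt2 and Sgce were the 8 members called under all 20 alternative fits. Calcr was called in 19 and was not tested where a mean of at least 5 FPKM was required. H19, Igf2 and Peg3 were called in 19, all except the fit with the marker mean as a covariate, and Plagl1 in 18, lacking both of those settings. Cdkn1c missed only with 1 mean per line. The calls of Dlk1 (5 of 20), Peg12, Rian and Snrpn (7 each), Impact (10) and Phlda2 (12) held least often.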

How the data were processed

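Polyadenylated RNA of 8 libraries was prepared with an Illumina TruSeq kit, per the labels' protocols. The authors deposited a table of FPKM for each library, and per the submitters' processing notes used TopHat2 2.0.6, Cufflinks 2.0.2 and mm9. Annotation, options and use of strand are not given in those notes. Locus starts are 0-based (8690 of 20477 lengths equal the RefSeq length as end minus start, 528 with 1 added), so 1 was added.

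Of 23699 entries, 248 symbols at several loci were left out. FPKM are not counts, so limma 3.58.1 (trend and robust options, R 4.3.3) was fitted to log2(FPKM + 1), a scale on which low genes change less than in FPKM, on the 11556 genes that reached 1 FPKM in 4 libraries or more. Fits for lines used 1 mean per line over all 8 libraries. Depth was estimated from the deposited 95% intervals. The members, gene lists and rule for named genes (all members, Col1a1, Zfp57, 3 state markers, up to 4 genes per list with the largest called change) were chosen with earlier results of these data known.

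Replicate numbers come from the titles. Deviations of same-numbered libraries from their state means correlated across genes at 0.217, 0.153, 0.185 and 0.514. The highest correlations with a differently numbered library were 0.123, 0.208, 0.208 and -0.215. The same number thus gave the higher value for numbers 1 and 4 only. No label states a pairing, and these values do not establish it for numbers 2 and 3. A fit blocked by replicate number (the replicate block) was added as an alternative, as each same-number value exceeded 0.1. Further alternatives were quantile normalization, median ratio scaling, pseudocounts of 0.1 and 5, a minimum mean of 5 FPKM or no filter, line as a random block, 1 mean per line, Col1a1 or the mean of 17 fibroblast markers as a covariate, replicates 1 to 3 only, and each library left out. The fit was tested on simulated data. The number of per-sample value columns not used was 0. Status was OK in all libraries for all 38 members, and 19 overlap another entry. Promoter and microRNA sequences are from RefSeq (GRCm38.p6), another build than mm9.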

Additional observations from a re-analysis of the deposited data

Results flagged for a closer look

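In each of 78 groups (38 members and Col1a1, 4 libraries a state) the highest and lowest library were compared with the rest, and 7 groups held a library far from the others by Dixon's 95% bound, where chance gives about 1 in 20. Mest was at 330.53 FPKM in mEpiSC 1, against 87.02 to 125.58 in the other mEpiSC libraries. Asb4 was at 1.27 FPKM in mESC 2, against 0.18 to 0.28 in the other mESC libraries, which is still far below every mEpiSC library. Dlk1 was at 2.01 FPKM in mESC 1, against 0.71 to 0.83. In mESC 4, Ddc was at 5.28 FPKM, against 2.30 to 2.54, and Impact at 35.12 FPKM, against 61.32 to 65.51. Mkrn3 was at 1.52 FPKM in mEpiSC 1, against 2.98 to 3.15. Kcnq1ot1 was at 0.06 FPKM in mEpiSC 4, against 0.25 to 0.28.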

How the results depend on the processing

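Of the count of 17 members higher in mEpiSC, 10 were left with the fibroblast marker mean as a covariate, and leaving out 1 library gave 13 to 16. The count of 3 lower members was 1 with no filter, with the line as a random block and with 1 mean per line, and 1 to 3 with a library left out. Over all genes, 2665 were higher, and 1597 with a mean of at least 5 FPKM, 865 with 1 mean per line, 1538 with the marker mean and 1843 to 2543 with a library left out. The 1640 lower genes became 1046 with the line as a random block, 557 with 1 mean per line, 781 with the marker mean and 976 to 1945 with a library left out. Between mESC lines 0 to 5 members passed with a library left out; between mEpiSC lines 0 to 6 did, and 1 (Asb4) with a pseudocount of 5. The replicate block gave 20 higher and 3 lower members, gaining Igf2r, Meg3, Mirg and Ube3a and losing Dlk1, and 3150 and 2055 over all genes; no other member's call changed. Directions reversed only for differences that were not called: Meg3 (-0.35 with Col1a1, -0.74 with the marker mean, -0.026 without mESC 4, and up to 0.90 without other libraries), Rtl1 (-0.18 with Col1a1, -0.32 with the marker mean, -0.01 without mESC 4, -0.042 without mEpiSC 2, and up to 0.48 without others), Igf2r (-0.051 with the marker mean), Col1a1 itself (-1.64 with the marker mean), Mkrn3 (-0.075 and -0.16 under median ratio scaling and quantile normalization, -0.026 with 1 mean per line, -0.14 without mESC 2, and -0.03, -0.02 and -0.01 without mEpiSC 2, 3 and 4, and up to 0.21 without mEpiSC 1), Ascl2 (0.039 without mESC 1, and down to -0.54 without mESC 2) and Ddc (0.13 with replicates 1 to 3). The cause was not tested. Depth limits the low members most: Dio3 rested on as few as 5 implied fragments in a library.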
